A study of Mus musculus with 6 samples.

Results

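The genes described here build and control the contractile cytoskeleton: actins, myosin chains, tropomyosins, calponins and their relatives, together with serum response factor (SRF), its cofactors and the RhoA pathway. A list of 38 symbols was looked up in the count table, and a gene was kept where its mean over the 6 libraries was 1 CPM or more (CPM, the library-size-normalised read count, scaled between libraries with TMM factors). This left 37 members of 55401 genes in the table, all 37 of them among the 13590 genes with enough reads to be tested. Myocd, the gene of the smooth muscle SRF cofactor myocardin, fell just outside at 0.932 CPM, and the lowest member, Mcam, measured 8.31 CPM.

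The libraries came from cultured CAFs (cancer-associated fibroblasts, which are fibroblasts activated by a tumour) of orthotopic tumours that grew in mice after an injection of MTO, as the labels abbreviate it, into the rectum. The genotype of the cells was wild type (WT) or Thbs2KO, a knockout of the gene of thrombospondin-2, a matricellular glycoprotein. After isolation, the cells of both groups were cultured on fibronectin-coated plates in medium with serum, so the levels are those of cultured CAFs. There were 6 libraries, 3 labelled WT and 3 labelled Thbs2KO, with 19649066 to 24417464 expected counts each. The sources used here do not give the knockout allele, strain, age, sex or passage number. Nor do the labels say whether replicates were separate mice or cultures, and a p-value therefore covers the variation among these 6 libraries alone, which may be technical.

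Contractile cells pull by sliding myosin II along actin filaments. In smooth muscle and in myofibroblasts, the contractile form of fibroblasts, phosphorylation of the myosin light chain switches this on; Mylk encodes the kinase, and the kinases Rock1 and Rock2, which RhoA activates, hold the opposing phosphatase, whose targeting subunit is Ppp1r12a, in check. Most of these genes are textbook targets of SRF, which binds the CArG box in promoters. The SRF cofactors of the MRTF family (Mrtfa, Mrtfb) are held in the cytoplasm by actin monomers and enter the nucleus when actin polymerises, while myocardin is largely restricted to muscle. The members were divided by role into 14 smooth muscle enriched genes, 16 broadly expressed actomyosin genes, 3 of SRF and its cofactors, and 4 of the RhoA pathway.

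The promoters of 5 members are shown because they hold matches to the CArG box. The CArG box was searched for on both strands in RefSeq promoter windows of GRCm38.p6, each reaching from 250 bases before to 50 bases after an annotated start. The table matched 32 of the 37 members by symbol, with 40 windows. A box stood in a window of 5 of these 32 genes (15.6%), namely Myl9, Actg1, Myl6, Cnn2 and Srf, and in 1.81% of the 27025 genes in the table. With 1 C or G allowed in the core of A and T letters, a form chosen after the strict search had been seen, the count was 9 of 32 (28.1%) against 11.3% of all genes. It added Acta2, Myl12a, Tpm3 and Mrtfa. A match is a match of letters, not a measured binding site, and its absence says nothing of SRF beyond this window. The 250 bases before the start are given 5′ to 3′ on the gene's strand, with the boxes of either form in capitals.
Acta2 (chr19:34255374-34255623, minus strand): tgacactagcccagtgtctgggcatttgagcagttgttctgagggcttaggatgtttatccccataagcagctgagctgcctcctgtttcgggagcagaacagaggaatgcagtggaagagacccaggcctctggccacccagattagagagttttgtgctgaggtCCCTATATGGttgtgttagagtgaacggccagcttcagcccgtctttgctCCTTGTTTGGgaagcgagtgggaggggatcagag
Myl9 (chr2:156775214-156775463, plus strand): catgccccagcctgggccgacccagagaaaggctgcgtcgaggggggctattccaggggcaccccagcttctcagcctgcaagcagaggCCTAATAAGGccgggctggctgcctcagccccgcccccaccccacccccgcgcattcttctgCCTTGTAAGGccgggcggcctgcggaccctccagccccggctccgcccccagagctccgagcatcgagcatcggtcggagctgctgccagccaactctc
Actg1 (chr11:120348496-120348745, minus strand): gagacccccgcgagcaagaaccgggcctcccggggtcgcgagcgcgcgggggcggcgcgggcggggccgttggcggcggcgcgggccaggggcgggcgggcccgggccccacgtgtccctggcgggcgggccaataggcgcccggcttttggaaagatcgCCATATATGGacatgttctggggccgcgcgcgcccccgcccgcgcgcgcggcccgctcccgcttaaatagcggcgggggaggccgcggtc
Cnn2 (chr10:79988350-79988599, plus strand): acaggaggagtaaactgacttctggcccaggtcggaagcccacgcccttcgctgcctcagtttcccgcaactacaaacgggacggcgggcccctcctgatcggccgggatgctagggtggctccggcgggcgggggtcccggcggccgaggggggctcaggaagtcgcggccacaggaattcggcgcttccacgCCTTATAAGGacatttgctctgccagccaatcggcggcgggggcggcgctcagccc
Srf (chr17:46556163-46556412, minus strand): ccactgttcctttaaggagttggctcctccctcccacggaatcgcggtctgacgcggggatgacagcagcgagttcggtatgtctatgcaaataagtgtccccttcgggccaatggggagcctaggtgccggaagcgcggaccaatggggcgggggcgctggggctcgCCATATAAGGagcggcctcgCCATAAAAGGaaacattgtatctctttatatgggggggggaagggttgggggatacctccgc
Srf, whose own promoter is included, held 2 strict boxes, beginning 82 and 62 bases before the start. Myl9 held 1 strict box and 1 with a C or G in the core. The Acta2 window held 2 boxes, beginning 84 and 34 bases before the start, each with 1 C or G in the core. Side by side, the 5 genes with a strict box had log2 fold changes of -0.78 (Myl9), -0.26 (Actg1), -0.27 (Myl6), -0.50 (Cnn2) and -0.40 (Srf), while matched members with neither form ranged from -1.63 (Cnn1) to 0.05 (Des), on both sides of these values.

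Some libraries stood apart from the others. Thbs2 itself measured 2327, 4166 and 3705 CPM in WT and 538, 425 and 412 CPM in Thbs2KO and so fell in the libraries labelled Thbs2KO (log2 fold change -2.89, edgeR adjusted p = 0.00521). Thbs2KO replicates 1 and 2 were by far the most alike pair (chi-square per degree of freedom 3.78 over tested genes, against 15.7 to 121.8 for other pairs), a difference still above sampling noise. On the second principal component (27.9% of the variance) WT replicate 1 and Thbs2KO replicate 3 lay on the side opposite to the other 4 libraries. WT replicate 1 was the lowest WT library for 13 of the 14 smooth muscle enriched genes and 15 of the 16 broadly expressed ones, against 40.4% of all tested genes. Results are given with and without it. Because it was the lowest WT library for most members, leaving it out widens their differences by construction. Calls and orders without it are thus no separate support, and the shares of all genes beside them are not a like yardstick. In bulk RNA, fewer cells of a contractile type and less contractile RNA per cell cannot be told apart.

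Contractile genes were lower in Thbs2KO on average, but none passed the test over all genes. Of 37 members 35 had a negative log2 fold change, with a median of -0.37, whereas 50.9% of all tested genes were negative, with a median of 0.00. By edgeR 0 members had a Benjamini-Hochberg adjusted p below 0.05, where 1.09% of all genes did, 0.537% lower and 0.552% higher. At an unadjusted p below 0.05, 24 members were lower and 0 higher, against 7.56% of all genes lower and 5.72% higher. DESeq2 called 11 members lower (2.93% of all genes), and limma-voom called 0 (0.545%). By limma-voom 23 members were lower at an unadjusted p below 0.05, as were 987 of all 13590 tested genes. For 18 of the 37 no Thbs2KO library reached the lowest WT library (10.3% of all genes), and for 0 was the order the other way (9.37%).

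**Figure D1:**
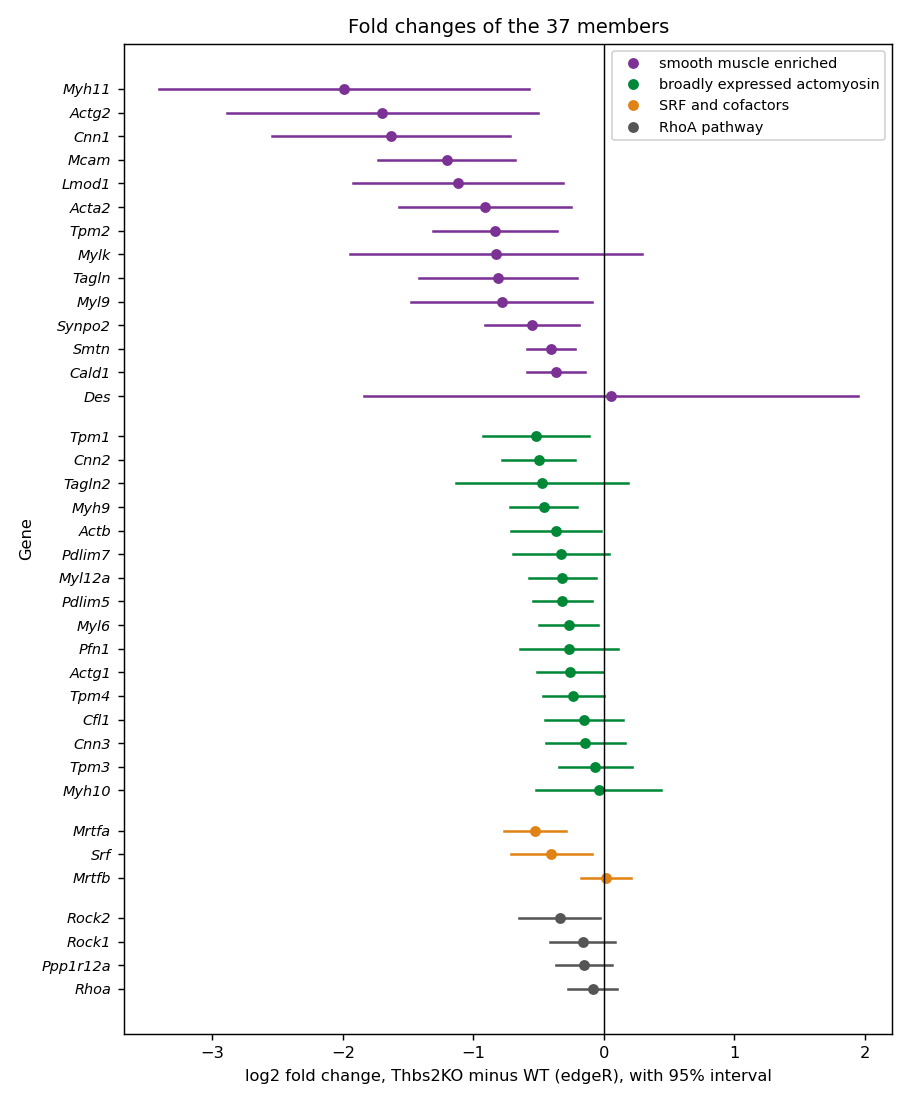
Log2 fold change of each of the 37 members (x axis, Thbs2KO minus WT, edgeR) with its 95% interval, 1 gene per row, coloured by role. Smooth muscle enriched genes reach from -1.99 (Myh11) to 0.05 (Des), the broadly expressed ones only from -0.52 (Tpm1) to -0.04 (Myh10).

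Both smooth muscle actins had lower means in Thbs2KO. Acta2 (chromosome 19, 34241090 to 34255590, minus strand, mm10), smooth muscle alpha-actin and the usual marker of myofibroblasts, measured, in replicate order as throughout, 2289, 4345 and 4868 CPM for the WT libraries. The Thbs2KO libraries gave 1832, 2028 and 2267 CPM. All 3 Thbs2KO libraries were below all 3 WT libraries, but WT replicate 1 stood next to Thbs2KO replicate 3 and far below the other WT libraries. The means were 3834 ± 1363 and 2042 ± 218 CPM (SD, n = 3 each; edgeR log2 fold change -0.91, standard error 0.275, adjusted p = 0.217, Benjamini-Hochberg over all genes as for every adjusted p here). Without WT replicate 1 the difference passed the test (log2 fold change -1.17, edgeR adjusted p = 0.0146), and over all alternatives its adjusted p ran from 0.000571 to 0.557. Actg2 (chromosome 6, 83512905 to 83536265, minus strand), the gamma-actin of visceral smooth muscle, measured 100.3, 442 and 298 CPM in WT and 86.3, 104 and 69.2 CPM in Thbs2KO. WT replicate 1 fell between Thbs2KO libraries, so the groups overlapped, and the log2 fold change of -1.70 had a 95% interval from -2.89 to -0.51 (edgeR adjusted p = 0.206). Without WT replicate 2 it was -1.20.

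Genes of proteins that bind the thin filament showed a like arrangement of libraries. Tagln (chromosome 9, 45929619 to 45936058, minus strand), the actin-bundling protein transgelin or SM22-alpha, measured 1471, 2401 and 2795 CPM in WT and 1068, 1213 and 1513 CPM in Thbs2KO. Its groups overlapped, since Thbs2KO replicate 3 exceeded WT replicate 1. An antisense gene, Gm48529, covers 62.4% of the Tagln exons at 1.53 CPM, and the libraries do not mark strand, so reads from the shared stretch cannot be divided between them. Cnn1 (chromosome 9, 22099216 to 22109630, plus strand), the smooth muscle calponin that binds actin and restrains myosin, measured 151, 421 and 415 CPM in WT and 105, 122 and 91.8 CPM in Thbs2KO. These groups did not overlap, and the Thbs2KO mean was 32.3% of the WT mean (edgeR log2 fold change -1.63, standard error 0.381, adjusted p = 0.123). With WT replicate 1 left out Cnn1 passed (edgeR adjusted p = 0.00348, log2 fold change -1.98), while over all alternatives its adjusted p ran from 9.91e-05 to 0.363.

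Tpm2, the beta-tropomyosin that lies along the actin filament, measured 543, 879 and 909 CPM in WT and 412, 467 and 429.9 CPM in Thbs2KO (edgeR log2 fold change -0.83, standard error 0.198, adjusted p = 0.129). Cald1, caldesmon, an actin-binding inhibitor of myosin, measured 1886, 2017 and 2225 CPM in WT and 1551, 1571 and 1636 CPM in Thbs2KO (edgeR log2 fold change -0.37, standard error 0.0934, adjusted p = 0.148). Neither gene's groups overlapped, and in Cald1 WT replicate 1 lay near the other WT libraries. Lmod1, leiomodin, which nucleates actin filaments in smooth muscle, measured 52.6, 115 and 110.5 CPM in WT and 33.5, 37.9 and 56.8 CPM in Thbs2KO (edgeR log2 fold change -1.12, standard error 0.336, adjusted p = 0.214). Here Thbs2KO replicate 3 exceeded WT replicate 1. Cald1 and Mylk also give nonmuscle forms from the same locus, which gene counts do not separate.

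In the motor and its switch, Myh11 and Mylk varied more between WT libraries than Myl9 did. Myh11 (chromosome 16, 14194535 to 14291372, minus strand), the smooth muscle myosin heavy chain, had the most negative log2 fold change of all 37 members (-1.99, 95% interval -3.41 to -0.57, edgeR adjusted p = 0.210). It measured 15.0, 89.9 and 51.9 CPM in WT and 12.9, 16 and 10.6 CPM in Thbs2KO, so WT replicate 1 was among the Thbs2KO libraries and the WT libraries spanned 6-fold. Without WT replicate 2 its log2 fold change was -1.34, and Cnn1, at -1.40, was then the most negative member. Myl9, the regulatory light chain that the kinase phosphorylates, measured 328, 721 and 659 CPM in WT and 294, 315 and 384 CPM in Thbs2KO (edgeR log2 fold change -0.78, standard error 0.290, adjusted p = 0.316). Its WT replicate 1 was also inside the Thbs2KO range. Mylk, the light chain kinase, measured 139, 421 and 252 CPM in WT and 99.4, 124 and 235 CPM in Thbs2KO. Thbs2KO replicate 3 stood well above the other Thbs2KO libraries and above WT replicate 1, and the interval of the log2 fold change, -1.94 to 0.29, included 0. The value itself, -0.82, was -0.35 without WT replicate 2 and -1.28 without Thbs2KO replicate 3.

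Des was the exception among smooth muscle enriched genes. This gene of desmin, the muscle intermediate filament, measured 11.5, 175 and 74.3 CPM in WT and 71.3, 105 and 93.8 CPM in Thbs2KO. WT replicate 1 was the lowest and WT replicate 2 the highest of all 6 libraries, 15.2-fold apart, and the log2 fold change of 0.05 had an interval from -1.84 to 1.94. Its sign depended on the libraries used: it was -0.47 without WT replicate 1 and 1.07 without WT replicate 2.

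In Mcam, Smtn and Synpo2 no Thbs2KO library reached a WT library. Mcam (CD146), an adhesion molecule of pericytes and smooth muscle, measured 8.44, 13.8 and 12.5 CPM in WT and 4.26, 5.43 and 5.38 CPM in Thbs2KO. WT replicate 1 was again the lowest WT library. Mcam had the smallest adjusted p of all members (edgeR log2 fold change -1.21, standard error 0.220, adjusted p = 0.0691). Over all alternatives this ran from 0.000215 to 0.261. It fell below 0.05 by DESeq2 and without the low-count filter, where Mcam was the 1 member called, against 0.505% of all genes. The same held for Mcam by edgeR without WT replicate 1, alone or together with Thbs2KO replicate 3. Its reads numbered 90 to 315 per library. Smtn, smoothelin, a protein of contractile smooth muscle, measured 131, 135 and 137 CPM in WT and 93.7, 102 and 109 CPM in Thbs2KO (edgeR log2 fold change -0.41, standard error 0.0770, adjusted p = 0.0712). Synpo2, an actin-bundling protein of the Z-disc and dense bodies, measured 14.1, 13.5 and 12.3 CPM in WT and 8.56, 7.88 and 10.9 CPM in Thbs2KO (edgeR log2 fold change -0.55, standard error 0.151, adjusted p = 0.175). In Smtn the WT libraries were nearly level, and Synpo2 was the 1 smooth muscle enriched gene for which WT replicate 1 was the highest WT library.

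**Figure D2:**
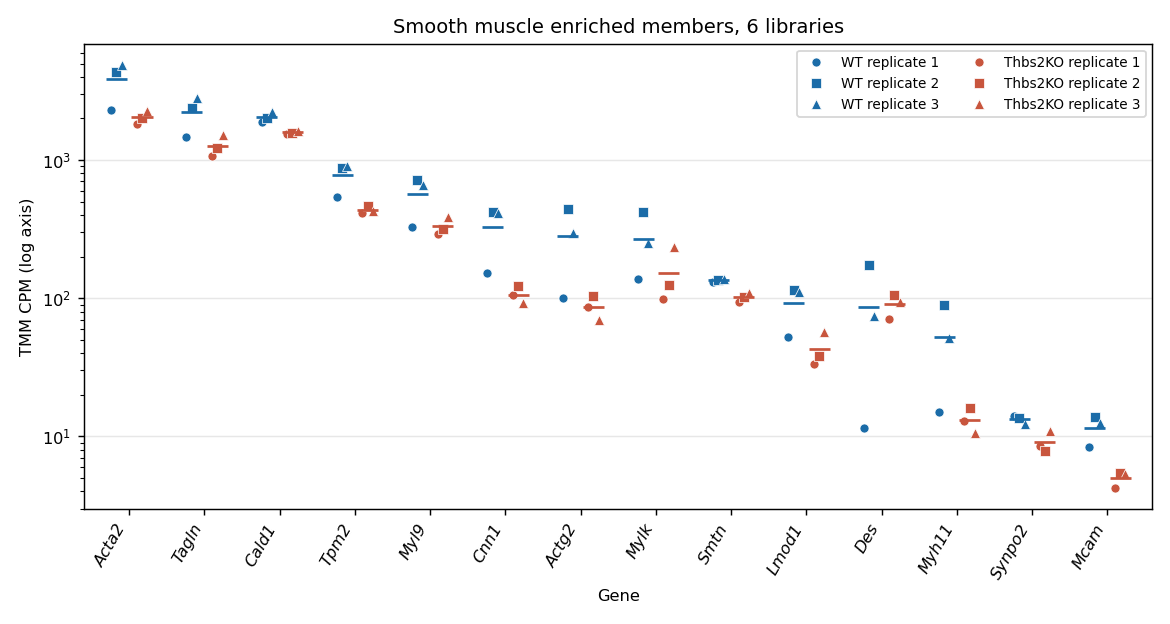
TMM CPM (log axis) of the 14 smooth muscle enriched members in each library, blue for WT and red for Thbs2KO, with a bar at each group's mean. WT replicate 1 (blue circle) is the lowest WT point for 13 of the 14 genes, and for Des it is the lowest of all 6, at 11.5 CPM.

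In the smooth muscle enriched group as a whole, 13 of 14 log2 fold changes were negative with a median of -0.83, 12 were lower at an unadjusted p below 0.05 (7.56% of all genes), and DESeq2 called 8 lower (2.93% of all genes), namely Acta2, Tagln, Cnn1, Tpm2, Cald1, Lmod1, Smtn and Mcam. The groups did not overlap for 7 of the 14 (10.3% of all genes). With WT replicate 1 set aside, all 3 Thbs2KO libraries were below WT replicates 2 and 3 for 13 of the 14, where 20.5% of all genes showed that order. Setting aside the library that was lowest in WT for most of these genes favours that order in advance.

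Broadly expressed actomyosin genes pointed the same way with smaller differences. All 16 log2 fold changes were negative, with a median of -0.29, 9 were lower at an unadjusted p below 0.05 (7.56% of all genes), and DESeq2 called 2 (2.93%). The groups did not overlap for 8 of the 16 (10.3% of all genes), much as among the smooth muscle enriched genes. All Thbs2KO libraries were below WT replicates 2 and 3 for 13 of the 16 (20.5%). Actb (chromosome 5, 142903115 to 142906754, minus strand), cytoplasmic beta-actin, measured 3459, 4385 and 4731 CPM in WT and 3329.6, 3513 and 2927 CPM in Thbs2KO (edgeR log2 fold change -0.36, standard error 0.145, adjusted p = 0.347). Actg1, cytoplasmic gamma-actin, measured 3478, 3749.8 and 3780.5 CPM in WT and 3142, 3308 and 2730.1 CPM in Thbs2KO (edgeR log2 fold change -0.26, standard error 0.106, adjusted p = 0.358). Thbs2KO replicate 2 exceeded WT replicate 1 in Actb by a narrow margin, whereas the Actg1 groups did not overlap. Both genes have near-identical copies in the genome, and they are among the 9 members with non-whole expected counts, the sign that shared reads were divided (Actb, Actg1, Myl6, Myl12a, Tpm3, Myh9, Myh10, Cfl1 and Rhoa).

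Cnn2 and Myh9 were the broadly expressed members that DESeq2 called. Cnn2 (chromosome 10, 79988584 to 79996062, plus strand), the calponin of nonmuscle cells, measured 529.9, 635 and 697 CPM in WT and 415, 436 and 464 CPM in Thbs2KO (edgeR log2 fold change -0.50, standard error 0.116, adjusted p = 0.119; DESeq2 adjusted p = 0.00699). Myh9 (chromosome 15, 77760587 to 77842175, minus strand), the heavy chain of nonmuscle myosin IIA, measured 3329, 3045 and 3705 CPM in WT and 2446, 2569 and 2299 CPM in Thbs2KO (edgeR log2 fold change -0.46, standard error 0.107, adjusted p = 0.117; DESeq2 adjusted p = 0.00230). Neither gene's groups overlapped. In Myh9 WT replicate 2, not replicate 1, was the lowest WT library. Myh10, the heavy chain of nonmuscle myosin IIB, did not share this: it had a log2 fold change of -0.04 with an interval from -0.52 to 0.44, and WT replicate 1 was the lowest of the 6 libraries at 191 CPM.

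Tpm4, a short tropomyosin of nonmuscle cells, measured 1283, 1464 and 1554 CPM in WT and 1217, 1256 and 1179 CPM in Thbs2KO (edgeR log2 fold change -0.24, standard error 0.0976, adjusted p = 0.372). Myl12a, a nonmuscle regulatory light chain, measured 374, 445 and 487 CPM in WT and 349, 345 and 353 CPM in Thbs2KO (edgeR log2 fold change -0.32, standard error 0.107, adjusted p = 0.263). It shares 462 exon bases with its neighbour Myl12b. Tagln2, the transgelin of nonmuscle cells, measured 316, 511 and 649 CPM in WT and 385, 404 and 274 CPM in Thbs2KO. In Tpm4 and Myl12a the groups were apart, while in Tagln2 WT replicate 1 and Thbs2KO replicate 3 were both low and the interval, -1.13 to 0.18, included 0. Of the rest, Tpm1 (tropomyosin alpha-1, used in muscle and nonmuscle cells), Pdlim5 (a PDZ and LIM adaptor of the cytoskeleton) and Myl6 (the essential light chain) had log2 fold changes of -0.52, -0.32 and -0.27 with groups that did not overlap. Pdlim7, Pfn1 (profilin), Cfl1 (cofilin, which severs filaments), Cnn3 (the acidic calponin) and Tpm3 had overlapping groups, with -0.33, -0.27, -0.15, -0.14 and -0.07. The actin turnover genes Cfl1 and Pfn1 were lowest in Thbs2KO replicate 3, at 873 and 331 CPM.

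SRF and its cofactors differed among themselves. Mrtfa (chromosome 15, 81012281 to 81190757, minus strand) measured 68.0, 83.6 and 75.6 CPM in WT and 52.4, 56.1 and 48.9 CPM in Thbs2KO. The groups did not overlap (edgeR log2 fold change -0.53, standard error 0.0996, adjusted p = 0.0706). Mrtfa was called lower by DESeq2 (adjusted p = 0.00167) and by edgeR without WT replicate 1 (adjusted p = 0.0358). By edgeR without WT replicate 1 and Thbs2KO replicate 3, Mrtfa was called too (adjusted p = 0.00551), with 0.00167 to 0.275 over all alternatives. Its relative Mrtfb measured 39.6, 34.9 and 39.1 CPM in WT and 37.7, 39.5 and 37.7 CPM in Thbs2KO, with a log2 fold change of 0.02 and an interval from -0.17 to 0.21. The interval of Mrtfa (-0.77 to -0.29) lay wholly below it, although the difference between the 2 genes was not tested. Srf measured 57.0, 73.0 and 76.9 CPM in WT and 54.7, 54.5 and 47.2 CPM in Thbs2KO, without overlap, WT replicate 1 coming close to Thbs2KO replicates 1 and 2 (edgeR log2 fold change -0.40, standard error 0.130, adjusted p = 0.248). Myocd, under the limit of 1 CPM, was at 0.430, 2.45 and 1.55 CPM in WT and 0.473, 0.343 and 0.342 CPM in Thbs2KO, or 7 to 56 reads per library. It was highest in WT replicates 2 and 3, as Myh11 and Actg2 were.

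RhoA pathway genes differed least. Rhoa, the GTPase at its head, had a log2 fold change of -0.09 (95% interval -0.27 to 0.10), Rock1 of -0.16 and Ppp1r12a of -0.15, all with overlapping groups. Rock2 measured 307, 430.0 and 397 CPM in WT and 301, 305 and 291 CPM in Thbs2KO. It was the 1 gene of these 4 without overlap, by a small margin at WT replicate 1 (edgeR log2 fold change -0.34, standard error 0.130, adjusted p = 0.331), and it passed without WT replicate 1 (edgeR adjusted p = 0.0389; 0.00471 to 0.704 over all alternatives).

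**Figure D3:**
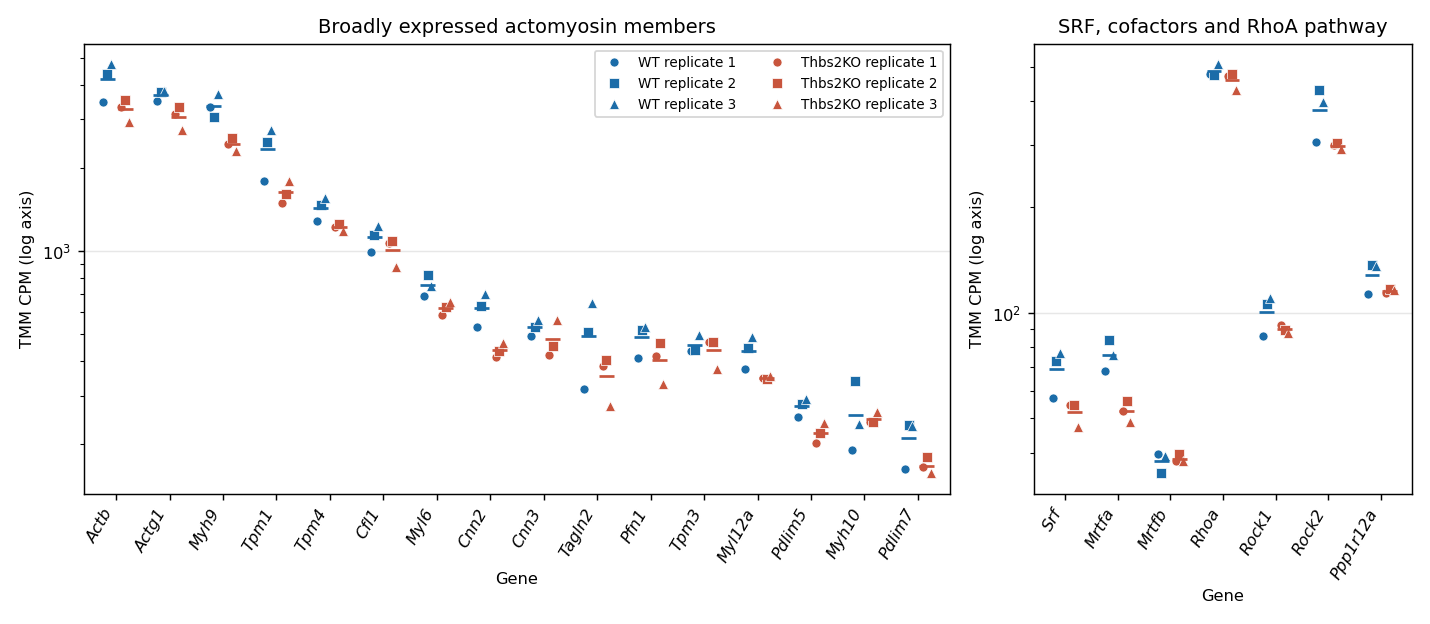
TMM CPM (log axes) in each library of the 16 broadly expressed actomyosin members (left) and of SRF, its cofactors and the RhoA pathway (right), with a bar at each group's mean. The Mrtfb points of both groups lie together, near 38.1 CPM, while those of Mrtfa do not overlap.

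Smooth muscle enriched and broadly expressed genes were then set side by side in each library. As the mean of log2(CPM + 0.5) relative to the 6 libraries, the smooth muscle enriched group stood at -0.33, 0.88 and 0.65 in the WT libraries and -0.56, -0.36 and -0.29 in Thbs2KO. The broadly expressed group stood at -0.07, 0.22 and 0.28 in the WT libraries and -0.15, -0.08 and -0.19 in Thbs2KO, a much narrower range. The first minus the second was -0.26, 0.66 and 0.37 in WT and -0.40, -0.28 and -0.09 in Thbs2KO. WT replicate 1 thus fell inside the Thbs2KO range, and the larger difference of the smooth muscle genes rested on WT replicates 2 and 3. Without Des, the gap in WT replicate 1 was -0.09, just above the Thbs2KO values of -0.45, -0.35 and -0.15. The SRF group stood at 0.03, 0.19 and 0.22 in the WT libraries and -0.13, -0.08 and -0.24 in Thbs2KO and the RhoA group at -0.09, 0.17 and 0.18 in the WT libraries and -0.07, -0.07 and -0.13 in Thbs2KO. Summed over the 14 genes, the CPM of smooth muscle enriched transcripts were 7140.0, 12189 and 12819.6 in the WT libraries and 5671, 6217 and 6911 in Thbs2KO, which did not overlap but left WT replicate 1 next to Thbs2KO replicate 3.

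**Figure D4:**
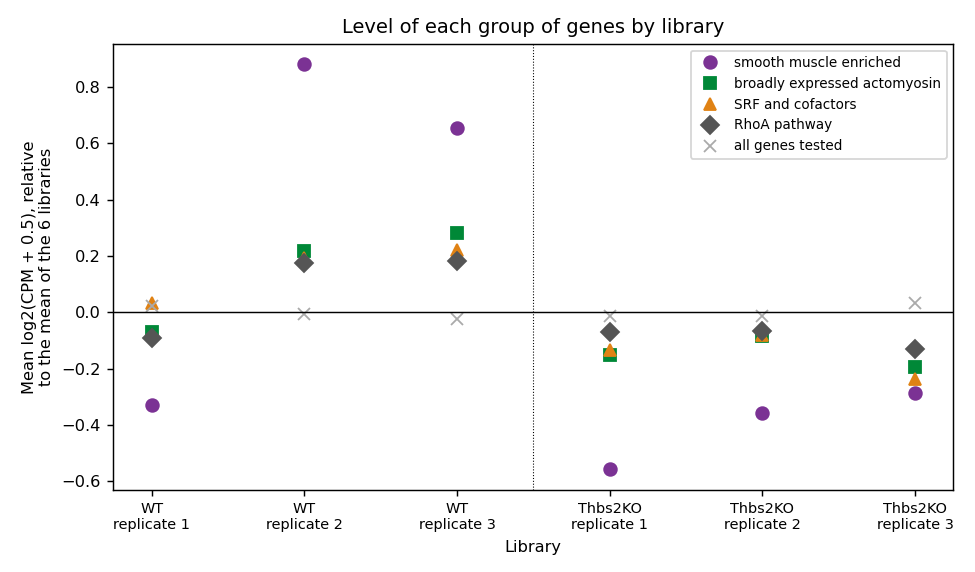
Mean log2(CPM + 0.5) of each group of genes in each library, relative to the mean of the 6 libraries, with all 13590 tested genes as crosses. Smooth muscle enriched genes stand at 0.88 and 0.65 in WT replicates 2 and 3 and below 0 in WT replicate 1 and in all 3 Thbs2KO libraries.

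Ratios of paralogs within a library do not depend on how libraries are scaled. Of 7 ratios of a smooth muscle to a broadly expressed paralog, all had a lower mean in Thbs2KO. The direction draws on the same values as the fold changes above and is no separate result. In 2 ratios, Cnn1 to Cnn2 and Tpm2 to Tpm4, the groups did not overlap, and no share over other gene pairs is given for comparison. The ratio of Cnn1 to Cnn2 was 0.285, 0.663 and 0.595 for WT and 0.252, 0.280 and 0.198 for Thbs2KO. For the calponins, WT replicate 1 was only just above the Thbs2KO libraries. The ratio of Acta2 to Actb was 0.662, 0.991 and 1.03 for WT and 0.550, 0.577 and 0.774 for Thbs2KO, where Thbs2KO replicate 3 exceeded WT replicate 1. The ratio of Myh11 to Myh9 was 0.00450, 0.0295 and 0.0140 for WT and 0.00526, 0.00623 and 0.00459 for Thbs2KO, with WT replicate 1 the lowest of all. Tagln to Tagln2 differed in pattern, at 4.65, 4.70 and 4.31 for WT and 2.77, 3.01 and 5.51 for Thbs2KO. There the WT libraries were alike and Thbs2KO replicate 3 was the highest of the 6. A ratio shows unequal change only, and not which of the genes differed.

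**Figure D5:**
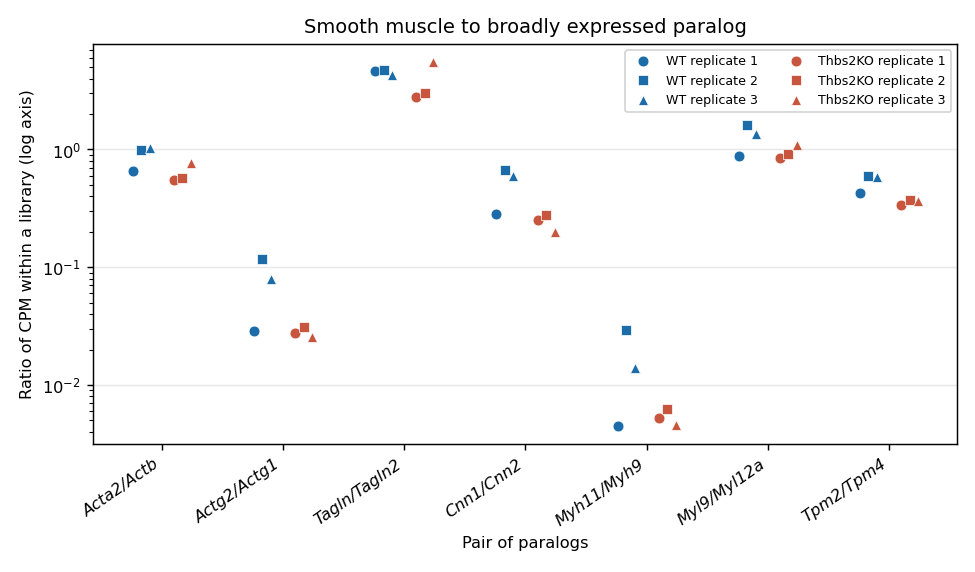
Ratio of CPM within each library (log axis) for 7 pairs of a smooth muscle and a broadly expressed paralog, blue for WT and red for Thbs2KO. WT replicate 1 (blue circle) is the lowest WT point in 6 of the 7 pairs and, for Tagln/Tagln2, is at 4.65 with the other WT libraries.

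Per length of exon, the place of smooth muscle alpha-actin among the actins varied between WT libraries. As CPM per kilobase of annotated exon, Acta2 stood at 1746 ± 621 in WT, Actb at 1565 ± 245, Actg1 at 1381 ± 62.6 and Tagln at 1118 ± 342 (SD, n = 3), so the order of the 3 actins was within the spread of Acta2. Acta2 was below both cytoplasmic actins in WT replicate 1 and above both in WT replicates 2 and 3. In Thbs2KO the same genes stood at 929.9 ± 99.1, 1216 ± 112, 1151 ± 112 and 636 ± 114, with Acta2 below Actb in each Thbs2KO library. Among myosin heavy chains, Myh9 stood at 259.9 ± 25.6 in WT, Myh10 at 24.4 ± 7.16 and Myh11 at 6.88 ± 4.93. The nonmuscle chain was thus the main one in these cells in each library. Exon lengths are unions over annotated transcripts, which understates genes with long rarely used exons.

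Wider lists of genes of the same machinery were read beside all tested genes, of which 50.9% were negative, 7.56% lower at an unadjusted p below 0.05 and 2.93% called lower by DESeq2. Among actin crosslinkers and adhesion plaque proteins (27 of 28 tested), 25 log2 fold changes were negative with a median of -0.40. Of the 27, 0 passed by edgeR, 18 were lower at an unadjusted p below 0.05, and DESeq2 called 12. Tns1, tensin 1, which ties actin to integrins, measured 334, 433 and 529 CPM in WT and 212, 225 and 233 CPM in Thbs2KO (log2 fold change -0.95, edgeR adjusted p = 0.0620). Its WT replicate 1 stood above every Thbs2KO library. Among 40 tested genes of small GTPase signalling, myosin regulation and actin turnover, 33 were negative with a median of -0.14, and 0 passed by edgeR or DESeq2, with 9 lower and 1 higher at an unadjusted p below 0.05. Those with the smallest p were Myo1c, an unconventional myosin, at -0.42, and Tmsb4x, thymosin beta-4, which binds actin monomers, at -0.45. Among 16 tested transcription regulators 11 were negative (median -0.19), 0 passed by either tool, and 6 were lower at an unadjusted p below 0.05. Elk3, an SRF partner of the ternary complex factor family, and Smad3, a mediator of TGF-beta signals, had -0.31 and -0.44.

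Markers of other cells the cultures could hold were read in the same libraries. By edgeR 0 genes of these lists passed. At an unadjusted p below 0.05, 3 of 5 tested enteric smooth muscle markers, 2 of 7 epithelial ones and 1 of 2 striated ones were lower. Higher were 1 of 9 fibroblast and 1 of 10 pericyte markers. Over all genes, 7.56% were lower and 5.72% higher. DESeq2 called Kcnmb1, Npnt, Krt19, Krt20 and Acta1 lower and Pdgfra higher, where 398 of 13590 tested genes were called lower and 301 higher. The 9 fibroblast markers summed to 28174 to 31046 CPM in WT and 27319.8 to 39022 CPM in Thbs2KO, most of it from the collagen genes Col1a1, Col1a2 and Col3a1. Fap, a marker of activated fibroblasts, was low, at 2.76, 7.67 and 6.83 CPM in WT and 6.38, 7.58 and 13.2 CPM in Thbs2KO, and Lum (lumican) was low in all libraries but Thbs2KO replicate 3, at 5.08, 8.02 and 8.93 CPM in WT and 8.79, 9.10 and 51.3 CPM in Thbs2KO. Both were named after their values were seen. Of the 9 markers 3 were negative and 6 positive. Pdgfra, a fibroblast receptor, measured 751, 556 and 388 CPM in WT and 1013, 947 and 1527 CPM in Thbs2KO. Every Thbs2KO library was above every WT library (log2 fold change 1.04, edgeR adjusted p = 0.172). Dcn (decorin), next by p, measured 323, 214 and 199 CPM in WT and 352, 275 and 1004 CPM in Thbs2KO. Its log2 fold change of 1.15 rested on Thbs2KO replicate 3 and was 0.35 without it. Of 14 noncontractile markers of pericytes and vascular smooth muscle, 10 were tested, 8 of them with positive log2 fold changes (median 0.22). Their summed level, 769 to 993 CPM in WT and 972 to 1067 CPM in Thbs2KO, was mostly Pdgfrb, which fibroblasts also express. Levels within the list differed. Rgs5, Cox4i2 and Heyl reached at most 0.615, 0.293 and 0.244 CPM, and Higd1b was at 0 reads. Cspg4 measured 61.0, 139 and 76.5 CPM in WT and 100, 161 and 93.4 CPM in Thbs2KO. Abcc9 measured 5.21, 22.3 and 9.56 CPM in WT and 13.2, 16.2 and 8.16 CPM in Thbs2KO. Rgs4 and Nrip2 had the smallest p (log2 fold changes 1.07 and 0.71). The contractile members and these markers had medians of opposite sign, with 0 of the 10 tested markers called by edgeR or DESeq2. Whether a share of such cells had a part in the contractile difference was not tested.

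Markers of enteric smooth muscle and interstitial cells (5 of 9 tested, 3 negative, median -0.50) summed to 213 to 324 CPM in WT and 135 to 211 CPM in Thbs2KO. DESeq2 called 2 of them lower: Kcnmb1, a channel subunit of smooth muscle, and Npnt, nephronectin, which measured 19.6, 25.2 and 29.7 CPM in WT and 12.9, 13.8 and 4.64 CPM in Thbs2KO. Kit and Hhip went the other way, with log2 fold changes of 1.20 and 0.73. Both were low, with means of 0.525 and 1.16 CPM in WT and 1.22 and 1.93 CPM in Thbs2KO. Ano1, which defines interstitial cells, was at most 0.570 CPM, and Pcp4 was at 0 reads. Epithelial markers were low, with summed levels that did not overlap between the groups: the 9 genes summed to 24.1 to 33.6 CPM in WT and 12.3 to 17.8 CPM in Thbs2KO, all 7 tested genes were negative (median -1.30), and DESeq2 called Krt19 and Krt20 lower (Krt19 and Lgr5 making up most of the sum, log2 fold changes of Krt19 and Krt20 -1.30 and -2.65). The defining genes Epcam and Cdh1 reached 1.80 and 1.42 CPM at most. The epithelial differences and those of the 3 negative enteric markers run in the same direction as the contractile genes, unlike Kit and Hhip. The part of any of these markers in the result was not tested. Striated muscle markers (2 of 16 tested, both negative) summed to 50.9 to 193 CPM in WT and 22.3 to 32.4 CPM in Thbs2KO, nearly all of it Acta1, and were at 0 reads for Myod1, Ckm, Myh6, Myh7 and Pax7. Summed endothelial markers were 2.93 to 27.2 CPM in WT and 22.4 to 45.6 CPM in Thbs2KO, nearly all from Kdr (log2 fold change 1.26), with Pecam1 at most 0.426 CPM. Leukocyte markers summed to 3.72 to 13.9 CPM in WT and 2.15 to 8.51 CPM in Thbs2KO (Csf1r -0.51, Lyz2 -0.56). Mesothelial and glial markers reached at most 1.18 and 1.89 CPM in sum, with 1 tested gene each. That of the mesothelial list, Wt1, was at 0.92.

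How many members passed depended on which libraries entered. Without WT replicate 1, 15 of the 37 were called lower by edgeR (1.83% of all genes): Acta2, Actg2, Tagln, Myl9, Cnn1, Tpm2, Myh11, Lmod1 and Mcam among the smooth muscle enriched genes, Cnn2, Tpm1 and Pdlim7 among the broadly expressed ones, and Srf, Mrtfa and Rock2. The smooth muscle median was then -1.10 and the broadly expressed one -0.38. Without both WT replicate 1 and Thbs2KO replicate 3, 26 were called lower (6.37% of all genes), 11 smooth muscle enriched, 10 broadly expressed, Srf, Mrtfa and 3 of the RhoA pathway. Both of these fits leave out the lowest WT library of most members, so larger differences follow in part from that choice. With any of the other 5 libraries left out, or with Thbs2KO replicates 1 and 2 summed to 1 library, 0 members were called. Few genes of any kind were called lower in these fits, 12 to 54 of 13735 to 13980 tested. The 0 is thus near the share over all genes and says little about the members. Fitted with the replicate number as a block, 0 were called as well (0.0736% of all genes lower). In the fit with Thbs2KO replicates 1 and 2 summed, 15 members were lower at an unadjusted p below 0.05, as were 741 of all 13980 genes tested there. No library left out gave a group median above 0.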

How the data were processed

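Reads of 6 libraries were trimmed with Trimmomatic 0.39, aligned with STAR 2.7.3a to mm10 and counted with RSEM, per the submitters' processing notes. The sources used here do not give the version of RSEM or the annotation. The deposited values are expected counts per gene, which the authors made with RSEM. They were rounded to whole numbers, since 3.80 to 3.88% of values in a library were not whole. The library kit named in the labels does not mark strand.

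Genes were filtered with filterByExpr (13590 kept), scaled by TMM and tested with edgeR 4.0.16 (R 4.3.3; quasi-likelihood, robust), genotype as the only term. Benjamini-Hochberg adjustment ran over all tested genes, with a threshold of 0.05. Code was tested on simulated data. DESeq2 1.42.0, limma-voom (limma 3.58.1), other scalings and filters, a replicate block and fits without single libraries were alternatives. Gene positions and exon lengths came from GENCODE M21, joined by Ensembl ID without version, and promoters from RefSeq. CPM per kilobase used the union of exons.

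Every member is named, in full where it is smooth muscle enriched, in a paralog ratio, an SRF cofactor or among the 8 smallest p-values. Other lists give genes that passed or, where none did, those with the smallest p; some genes these rules name are not reported here. The members and lists were chosen with earlier results of these data known.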

Additional observations from a re-analysis of the deposited data

How the results depend on the processing

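For genes changed, Thbs2KO against WT, the edgeR count was 148, and it was 699 with DESeq2, 245 without a filter, 1519 without WT replicate 1 and Thbs2KO replicate 3, 40 with Thbs2KO replicates 1 and 2 summed, and 38 to 397 with single libraries left out. Members past the threshold numbered 0, but 11 with DESeq2, 1 without a filter, 26 without WT replicate 1 and Thbs2KO replicate 3, and 0 to 15 with single libraries left out, the 15 without WT replicate 1. The SRF group's median log2 fold change ran from -0.52 to -0.32 with single libraries left out. All group medians, that of the SRF group included, kept their sign under every alternative run. The sign changed for 6 named genes. Without both libraries, Des was at -0.50, Tpm3 at 0.0035 and Tnnt3 at 0.17. With single libraries left out, Des ran from -0.47 to 1.07, Tpm3 from -0.12 to 0.0372, Myh10 from -0.21 to 0.22, Mrtfb from -0.0252 to 0.0503, Tnnt3 from -0.34 to 0.22 and Lyz2 from -1.30 to 0.91. The cause was not tested. RLE and upper-quartile scaling changed no sign and no call of the 37 members. Same-numbered libraries did not deviate together (correlations -0.29, 0.17 and -0.33 for replicates 1, 2 and 3), so the numbers were not taken as pairs. With the replicate block 30 genes and 0 members passed. At an unadjusted p below 0.05, 19 members were lower in that fit, as were 737 of all 13590 tested genes.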

Other observations

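Outside the members, 2 muscle genes had large log2 fold changes on few or uneven reads. Acta1, skeletal muscle alpha-actin, measured 49.4, 88.3 and 191 CPM in WT and 24.6, 31.1 and 21.4 CPM in Thbs2KO (log2 fold change -2.09, edgeR adjusted p = 0.117, DESeq2 adjusted p = 7.31e-05). Every Thbs2KO library was below every WT library, while the striated markers Myod1, Ckm, Myh6, Myh7 and Pax7 were at 0 reads in all 6. Actin paralogs have similar coding sequences, so reads could be split between them. Expected counts were not whole in 0 libraries for Acta2 and Actg2, in 2 for Actb and in 6 for Actg1. Whether Acta1 reads were divided was not tested. Kcnmb1, the beta subunit of the smooth muscle calcium-activated potassium channel, measured 0.990, 3.55 and 4.53 CPM in WT and 0.426, 0.147 and 0.293 CPM in Thbs2KO (log2 fold change -3.36, edgeR adjusted p = 0.0875). In both genes WT replicate 1 was the lowest WT library.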
